A study of Saccharomyces cerevisiae with 3 samples.

Results

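The 9 genes described here carry out heme synthesis and heme breakdown in Saccharomyces cerevisiae. They are the 8 synthesis genes HEM1, HEM2, HEM3, HEM4, HEM12, HEM13, HEM14 and HEM15, and the heme oxygenase gene HMX1. Members were taken by gene symbol from the probe annotation of an Affymetrix yeast array. Each of the 9 has 1 probe set annotated to it alone, out of 5656 genes with such a probe set. Cells of S288c, the baker's yeast strain of the reference genome, were held for 5 h in the solvent DMF (dimethylformamide) alone, in 7.5 µM tomatidine or in 15 µM tomatidine, the compound being given in DMF. Tomatidine is the steroidal alkaloid that remains when the sugars of tomatine, a defence compound of tomato, are removed. Total RNA of each condition went onto 1 array. Without replicates nothing could be tested, so the differences given are those of these 3 arrays, and their small number limits the precision.

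Heme is an iron-bearing ring that serves as the cofactor of cytochromes, catalases and some of the oxygen-using enzymes of sterol synthesis, such as those of ERG11 and ERG5. Its synthesis starts in the mitochondrion from glycine and succinyl-CoA, continues in the cytosol, and ends in the mitochondrion, where iron is inserted. In yeast, heme also reports the presence of oxygen. It activates the transcription factor Hap1, which in turn drives ROX1, the gene of a repressor of low-oxygen genes such as HEM13. S288c is a limited model of that route, because its HAP1 gene carries a transposon insertion that impairs it.

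Values are probe set signals divided by the array's median and brought to a common level. Signals were floored at 18.2, the 40th percentile of all scaled signals, before the log2 ratio was taken. A gene was called at a ratio of 2-fold or more with its brighter array above the floor. A fold whose dimmer array did not exceed the floor is a lower bound and is written "at least". Of the 9 genes, 7 were above the floor on all 3 arrays. HEM3 and HMX1 were above it on the DMF array alone. Signals of different genes come from different probes and are not set against each other.

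Median signals as deposited were 28.7, 30.3 and 30.7 on the DMF, 7.5 µM and 15 µM arrays. As a sign of RNA integrity, the 3' over 5' ratio of ACT1 (actin) lay between 1.47 and 1.80, and that of SPT15, a general transcription factor gene, was 3.30 on the DMF array and 2.35 and 2.48 on the 7.5 µM and 15 µM arrays. Scaled signals of 8 bacterial and phage spikes had a geometric mean of 220 on the DMF array, 137 on the 7.5 µM array and 123 on the 15 µM array. Ratios are taken against the median of each array, and scaling on the spikes would raise the median log2 ratio of all genes by 0.77 at 15 µM and 0.62 at 7.5 µM. With that scaling 1288 genes were called higher and 7 lower at 15 µM, in place of 129 and 54, and 798 and 4 at 7.5 µM, in place of 94 and 29. With the deposited values the calls at 7.5 µM were 126 and 19. The part of RNA quality and of the spikes in the results was not tested. All 4 markers of alpha cells were above the floor on all arrays and none of 6 markers of a cells was above it on any. This is the mating type of S288c.

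HEM13 had the largest ratio over DMF among the 7 genes above the floor throughout, at both doses. It encodes coproporphyrinogen III oxidase, the cytosolic enzyme that uses molecular oxygen at the step before heme synthesis returns to the mitochondrion. Its scaled signal was 74.5 on the DMF array, 146 on the 7.5 µM array and 181 on the 15 µM array. Both tomatidine arrays were thus well above the DMF array, and the 15 µM array was the highest. At 15 µM HEM13 was 2.43-fold higher than in DMF (log2 ratio 1.28), and 1.42% of the 4723 genes compared had a higher ratio. At 7.5 µM it was 1.96-fold higher (log2 ratio 0.97), with 2.41% of genes above it, and so lay just below the 2-fold call. With the deposited values, not scaled to the median, its log2 ratio at 7.5 µM was 1.05 and it was called. HEM13 was the 1 member of 9 called higher at 15 µM, where 2.73% of all genes were called higher. None of the 9 was called higher at 7.5 µM, against 1.99% of all genes.

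**Figure D1:**
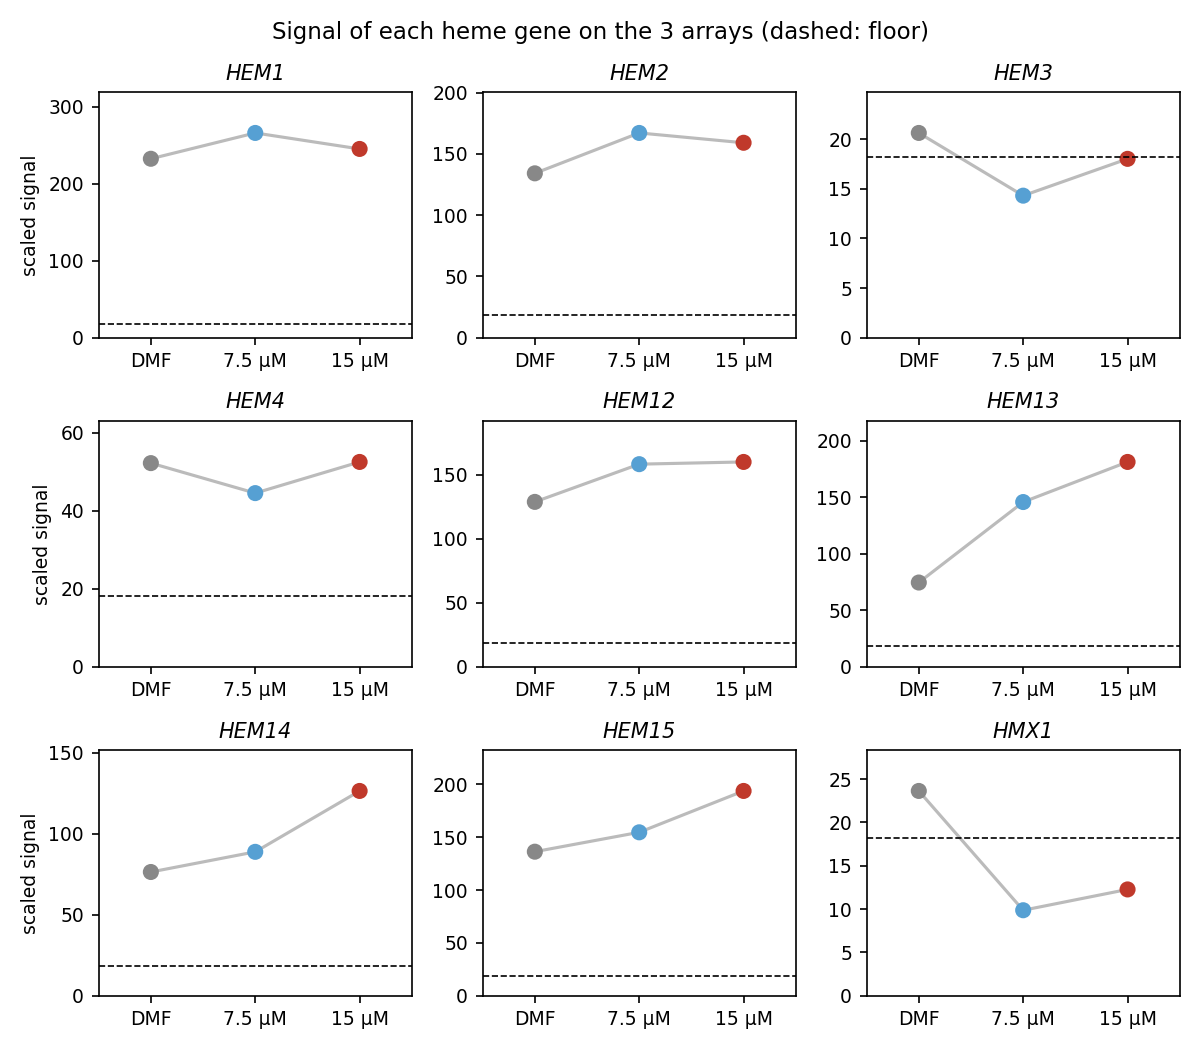
Scaled signal (vertical axes, from 0, a separate range for each gene) of the 9 heme genes on the DMF, 7.5 µM and 15 µM arrays, 1 point per array, with the floor of 18.2 as a dashed line. HEM13 reads 74.5, 146 and 181 in that order, while HMX1 is above the floor on the DMF array alone.

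The last enzymes of the pathway, both mitochondrial, had their highest signals at 15 µM. HEM14 encodes protoporphyrinogen oxidase, which makes the fully oxidised ring. It read 76.3 on the DMF array, 88.8 on the 7.5 µM array and 126 on the 15 µM array. The 15 µM array stood apart from the other two, with a 1.66-fold higher signal than DMF (log2 ratio 0.73) that stayed below the 2-fold call. Its ratio of 15 µM over 7.5 µM, 0.51 on the log2 scale, was exceeded by 5.78% of genes and was the largest of the 9 in that comparison. HEM15 encodes ferrochelatase, which inserts the iron. It read 136 on the DMF array, 155 on the 7.5 µM array and 194 on the 15 µM array. Its log2 ratio over DMF was 0.51 at 15 µM and 0.18 at 7.5 µM, and 10.8% of genes had a higher ratio at 15 µM.

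At a 1.5-fold threshold HEM13 and HEM14 were higher at 15 µM, 2 of the 9 members, where 8.26% of all genes passed. At 7.5 µM HEM13 alone passed it, where 8.62% of all genes did. None of the 7 genes above the floor throughout was 1.5-fold lower at either dose, where 6.9% of all genes were at 15 µM and 5.21% at 7.5 µM. HEM3 and HMX1 are known only as bounds, which lie under 1.5-fold, so at this floor such a call is undecided for them.

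At 15 µM HEM1, HEM2 and HEM12, genes of earlier steps, differed less from DMF than HEM13, HEM14 and HEM15. HEM1 encodes 5-aminolevulinate synthase, the entry enzyme in the mitochondrion. It read 233 on the DMF array, 266 on the 7.5 µM array and 245 on the 15 µM array, a log2 ratio over DMF of 0.19 at 7.5 µM and 0.08 at 15 µM. HEM2 encodes porphobilinogen synthase, the first cytosolic enzyme, and read 134 on the DMF array, 167 on the 7.5 µM array and 159 on the 15 µM array. For both genes the 7.5 µM array was the highest and the DMF array the lowest. HEM12 encodes uroporphyrinogen decarboxylase, which acts just before the HEM13 enzyme. It read 129 on the DMF array against nearly equal values of 158 and 160 on the 7.5 µM and 15 µM arrays. The log2 ratios over DMF at 15 µM were 0.25 for HEM2 and 0.31 for HEM12, and 24.2% and 19.6% of genes lay above them. At 7.5 µM the ratios of HEM2 and HEM12 were 0.32 and 0.30, above those of HEM14 (0.22) and HEM15 (0.18).

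HEM4 encodes uroporphyrinogen III synthase, which closes the ring. Its signals of 52.2 on the DMF array, 44.5 on the 7.5 µM array and 52.5 on the 15 µM array put the 7.5 µM array lowest and the other two level. Its log2 ratio over DMF was -0.23 at 7.5 µM and 0.01 at 15 µM. HEM3, the gene of porphobilinogen deaminase, which joins the pyrrole units, was dim on every array. It read 20.6 on the DMF array, 14.3 on the 7.5 µM array and 18.0 on the 15 µM array. The DMF value was just above the floor and both tomatidine values were under it. At this floor HEM3 was thus at least 1.13-fold lower at both doses, and the doses could not be ordered. With the 60th percentile floor its log2 ratio was 0 at both doses. With spike scaling it was 0.35 at 15 µM and 0 at 7.5 µM, or -0.39 and -0.59 relative to the median of all genes.

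HMX1 encodes heme oxygenase, which breaks heme down and releases its iron, and is known as a target of the iron regulator Aft1. It read 23.6 on the DMF array, 9.86 on the 7.5 µM array and 12.3 on the 15 µM array. The DMF array was the highest and both tomatidine arrays lay under the floor, so that HMX1 was at least 1.30-fold lower at each dose. None of the 9 members was called lower at 15 µM, against 1.14% of all genes, and none at 7.5 µM, against 0.614%. With the floor at the 20th percentile HMX1 was called lower at 7.5 µM, with a log2 ratio of -1.26, and its ratio at 15 µM was -0.95. HMX1 and HEM3 could enter the comparison only through the array on which they were brightest, so their direction is not counted with the other members.

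**Figure D2:**
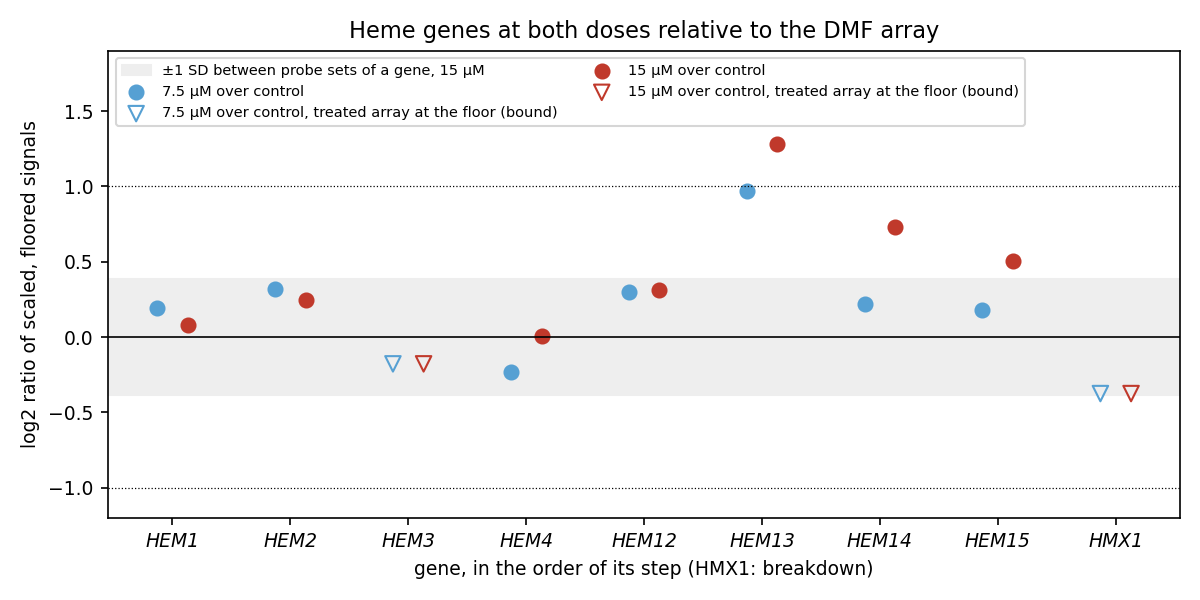
Log2 ratio of scaled, floored signals over the DMF array (vertical axis) for each gene in the order of its step, at 7.5 µM (blue) and 15 µM (red), with the 2-fold lines dotted. The grey band is ±0.38, the SD at 15 µM among ratios of probe sets that share a gene. HEM13 lies at 0.97 and 1.28, and open triangles for HEM3 and HMX1 are bounds.

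As no replicate was available, the spread of ratios between probe sets that read the same gene was taken as a scale. Its pooled SD over 173 genes was 0.38 log2 units for 15 µM over DMF, 0.34 for 7.5 µM over DMF and 0.29 for 15 µM over 7.5 µM. It holds the disagreement of probes within an RNA sample, and nothing of the variation between cultures. At 15 µM the ratios of HEM13, HEM14 and HEM15 were larger than 1 such SD. Of all genes compared 34.0% had a ratio of size above 0.375 at that dose. The ratios of HEM1, HEM2, HEM4 and HEM12 were smaller than the SD at both doses. Of the 7 genes above the floor throughout HEM13 alone exceeded it at 7.5 µM, where 31.7% of all genes compared had a size above 0.375. Between the doses HEM14 (0.51), HEM15 (0.33) and HEM13 (0.31) exceeded the SD of 0.29, HEM15 and HEM13 by little. There 28.6% of all genes compared had a ratio of larger size than HEM13. Ratios past this SD were thus common among all genes.

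Among the 7 genes above the floor on all arrays, all 7 had a ratio above 0 at 15 µM, and their median was 0.31 on the log2 scale, although that of HEM4 turned to -0.02 with quantile normalisation. Of the 4217 genes above the floor on all arrays 46.4% had a ratio above 0, and their median was -0.04. At 7.5 µM 6 of the 7 lay above 0, all but HEM4, with a median of 0.22, against 45.3% of all such genes and a median of -0.04. With spike scaling HEM4 had a log2 ratio of 0.45 at 7.5 µM, which was -0.13 relative to the median of all genes. Both comparisons share the DMF array, so that they are not independent. With HEM3 and HMX1 taken at their bounds the median over all 9 members was 0.25 at 15 µM and 0.19 at 7.5 µM. HEM3 and HMX1 were above the floor on the DMF array alone, so their ratios there could only lie below 0.

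The comparison of the doses with each other involves no DMF array. No member was called at 2-fold in either direction, where 0.72% of all genes were higher and 0.296% lower. Of the 7 genes 5 had a ratio of 15 µM over 7.5 µM above 0, against 48.6% of genes above the floor throughout. Those below 0 were HEM1 (-0.12) and HEM2 (-0.07), which turned to 0.03 and 0.08 with spike scaling. Relative to the median of all genes under that scaling they were -0.11 and -0.06. Signals were in the order DMF, 7.5 µM, 15 µM from low to high in 4 of the 7, namely HEM12, HEM13, HEM14 and HEM15, and in 16.5% of the 4217 genes. These 4 encode the last 4 enzymes of the pathway. The difference between the doses in HEM12 was 0.02 on the log2 scale. With spike scaling all 7 genes were in that order, as were 66.0% of the 4217.

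**Figure D3:**
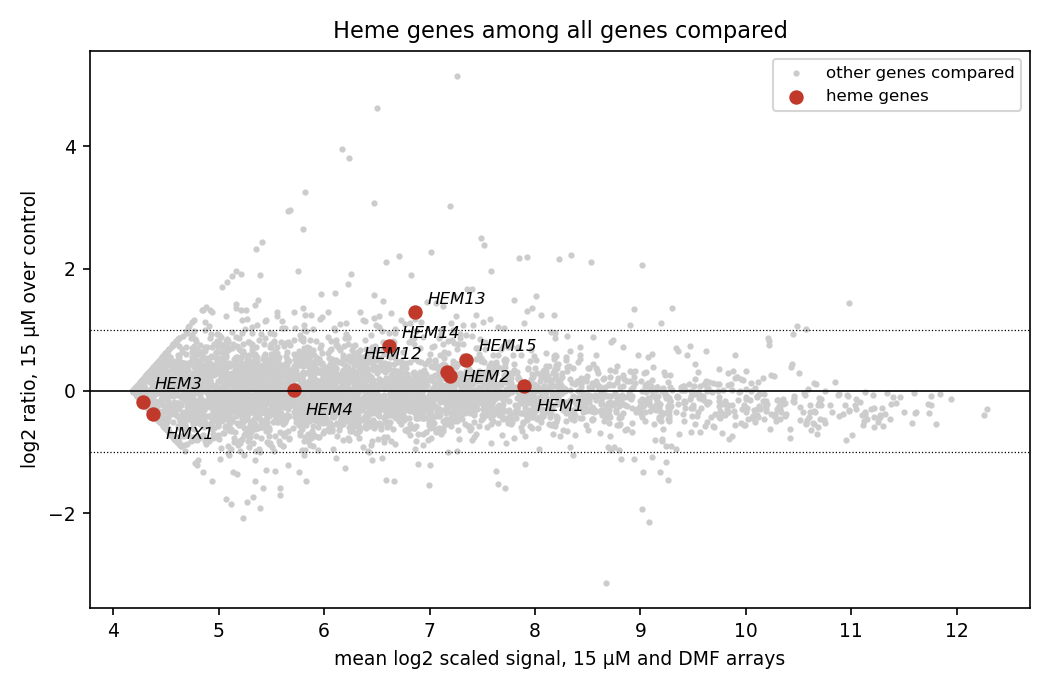
Log2 ratio of 15 µM over DMF (vertical axis) against the mean log2 scaled signal of these arrays (horizontal axis) for the 4723 genes compared (grey), with the 9 heme genes in red and the 2-fold lines dotted. HEM13 lies above the upper line at 1.28, HEM14 below it at 0.73, and HEM3 and HMX1 at the dim end, where the floor limits the ratio.

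HEM12 and HEM13 lie close together in the gene order of the R64 reference assembly, with 2 protein-coding genes between them. These are RPC11, a subunit gene of RNA polymerase III, and BAP3, an amino acid permease gene. Log2 ratios over DMF at 15 µM were -0.05 for RPC11 and 0.13 for BAP3, against 1.28 for HEM13 and 0.31 for HEM12. At 7.5 µM they were 0.13 and 0.05, against 0.97 for HEM13 and 0.30 for HEM12.

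The genes with a pattern most like that of HEM13 were sought among the 4217 genes, by the distance between their pair of log2 ratios over DMF and that of HEM13. The pair covers 3 arrays and its ratios share one of them. The 5 nearest were the glutamate decarboxylase gene GAD1 (distance 0.05), the steryl glucosidase gene EGH1 (0.05), the squalene epoxidase gene ERG1 (0.09), the phosphomevalonate kinase gene ERG8 (0.10) and the vacuolar metal transporter gene COT1 (0.10). ERG1 had log2 ratios of 1.35 at 15 µM and 0.91 at 7.5 µM, and ERG8 of 1.25 and 1.06. In all, 36 genes lay within a distance of 0.3 of HEM13, against 185 around HEM14 and 1102 around HEM1. Few genes have ratios as large as those of HEM13, so these counts restate the size of the ratios. No nearest genes are named for HMX1, whose ratios are bounds.

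Around the pathway stand genes that move heme or attach it to proteins, of which 8 of 9 listed could be compared. None was called at either dose, where 2.73% of all genes were called higher and 1.14% lower at 15 µM, and 1.99% and 0.614% at 7.5 µM. Of the 7 above the floor on all arrays, 2 had a ratio above 0 at 15 µM and 1 at 7.5 µM, where 46.4% and 45.3% of all such genes did. The median log2 ratio of the 8 was -0.24 at 15 µM and -0.11 at 7.5 µM, and over all genes compared it was -0.03 at each dose. DAP1, a heme-binding protein that aids the lanosterol demethylase, read 73.3, 112 and 141 on the DMF, 7.5 µM and 15 µM arrays. That was 1.92-fold higher than DMF at 15 µM and 1.53-fold at 7.5 µM. YAH1, the mitochondrial ferredoxin gene of heme A synthesis, was the opposite, with 367, 262 and 225 on the same arrays and log2 ratios over DMF of -0.49 at 7.5 µM and -0.71 at 15 µM. In the branch to siroheme, the cofactor of sulfite reductase, MET1 had a log2 ratio of 0.17 at 7.5 µM and -0.44 at 15 µM, and MET8 was under the floor in DMF and at 15 µM.

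Of 16 listed genes of heme-containing proteins 12 could be compared, with a median of 0.20 at 15 µM and 0.27 at 7.5 µM. At 15 µM 1 of the 12 was called higher and none lower, where 2.73% and 1.14% of all genes were. At 7.5 µM 2 were called higher and none lower, where 1.99% and 0.614% of all genes were. These were CYB5, cytochrome b5, which was 4.54-fold higher at 7.5 µM and 4.52-fold at 15 µM, and ERG5, a sterol desaturase, which was 2.12-fold higher at 7.5 µM and 1.95-fold at 15 µM. Both act in sterol synthesis. The catalase genes CTA1 and CTT1 were under the floor on all arrays, and the largest ratio below 0 was that of CYC1, the main cytochrome c, at -0.98 for 15 µM.

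Neither the list of substrate supply nor that of mitochondrial iron delivery held a gene called at either dose, at the shares of all genes given above. The 12 genes of glycine and succinyl-CoA supply had medians of -0.14 at 15 µM and -0.18 at 7.5 µM. Among them LSC2, a subunit of succinyl-CoA ligase, was 1.83-fold higher at 15 µM and GCV3, the carrier protein of the glycine cleavage system, had a log2 ratio of -0.69. The 14 genes of mitochondrial iron delivery and iron-sulfur assembly had medians of -0.08 at 15 µM and -0.04 at 7.5 µM. ISD11, a partner of the cysteine desulfurase, was at 0.47 and the iron carrier gene MRS4 at -0.37 for 15 µM.

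The 15 regulators of heme, oxygen and iron response had median log2 ratios of 0.10 at 15 µM and 0.006 at 7.5 µM. At 15 µM none was called higher and 1 lower, where 2.73% and 1.14% of all genes were. At 7.5 µM 1 was called higher and 1 lower, where 1.99% and 0.614% of all genes were. HAP4, the activating subunit of a factor that drives respiratory genes, was called lower at both doses. It read 61.9 on the DMF array, 21.1 on the 7.5 µM array and 13.8 on the 15 µM array, which made it 2.93-fold lower at 7.5 µM and at least 3.39-fold lower at 15 µM. ROX1 read 27.7, 57.7 and 33.3 on the DMF, 7.5 µM and 15 µM arrays. It was 2.08-fold higher at 7.5 µM and 1.20-fold higher at 15 µM, so that the 7.5 µM array stood apart. The DMF signal of ROX1 and both tomatidine signals of HAP4 lie under the 60th percentile floor of 45.6. The calls of both genes thus depend on the floor. HAP1 had log2 ratios of -0.49 and -0.46, and AFT1 of -0.15 and -0.05, at 7.5 µM and 15 µM.

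The 7 other listed genes that Rox1 represses, which leave out HEM13, had medians of 0.10 at 15 µM and 0.09 at 7.5 µM on the log2 scale. None was called, where 2.73% and 1.99% of all genes were called higher and 1.14% and 0.614% lower at these doses. ERG11, the lanosterol demethylase, was at 0.39 and AAC3, a low-oxygen ADP/ATP carrier, at -0.91 for 15 µM. Of 21 listed genes of the Aft1 iron regulon, HMX1 left out, 19 could be compared. Among the 18 above the floor on all arrays, 10 had a ratio above 0 at 15 µM and 9 at 7.5 µM. Of all such genes 46.4% and 45.3% did. The medians over the 19 were 0.24 at 15 µM and -0.004 at 7.5 µM. At 15 µM the median was however 0.01 with the floor at either the 20th or the 60th percentile. FET3, the multicopper oxidase of iron uptake, read 823, 426 and 329 on the DMF, 7.5 µM and 15 µM arrays and was 2.50-fold lower at 15 µM and 1.93-fold lower at 7.5 µM. COT1 was 2.28-fold higher at 15 µM and 2.01-fold higher at 7.5 µM. The remaining 17 were not called at either dose.

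**Figure D4:**
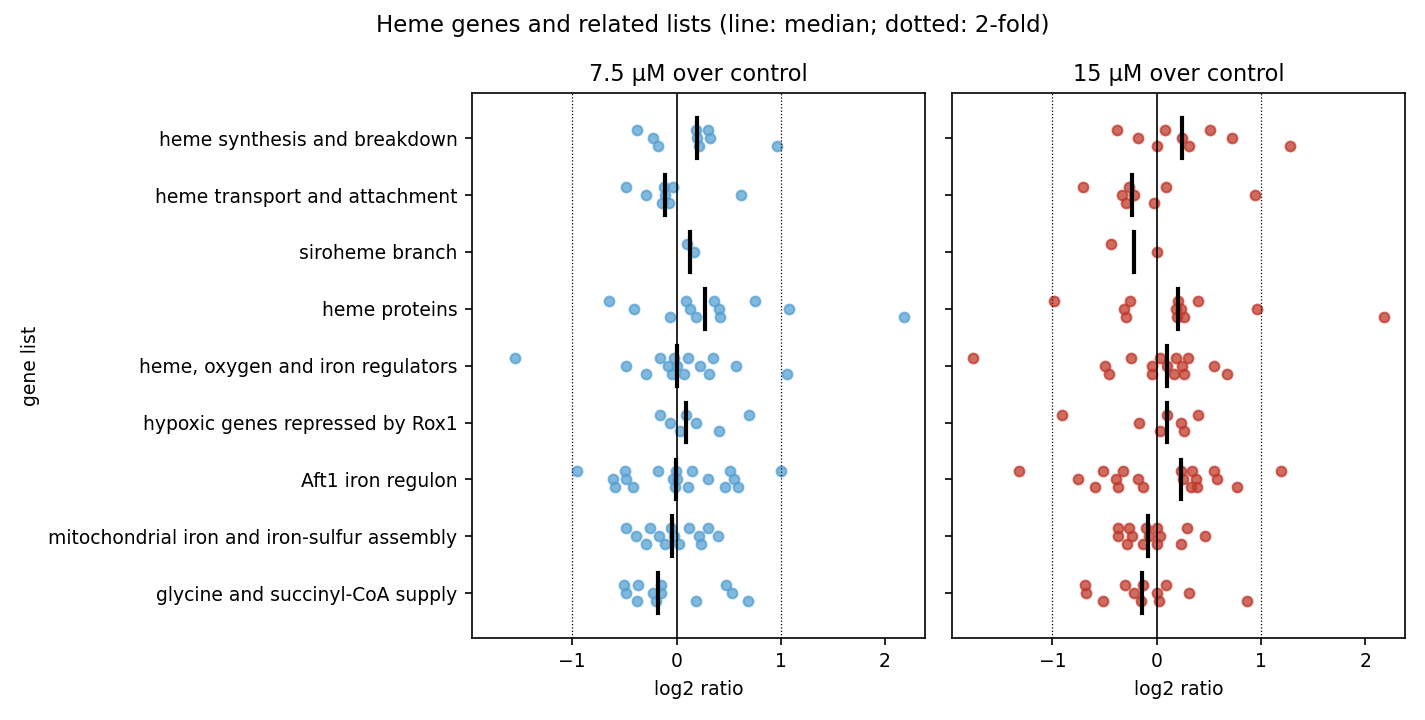
Log2 ratio over DMF (horizontal axes) of each compared gene in the heme group and in 8 related lists (rows), at 7.5 µM (left) and 15 µM (right), with medians as black lines and 2-fold as dotted lines. The medians of the heme group are 0.19 at 7.5 µM and 0.25 at 15 µM, and those of the other lists lie on both sides of 0, from -0.18 to 0.27 at 7.5 µM and from -0.24 to 0.24 at 15 µM. Medians include genes at the floor, among them HEM3 and HMX1, whose ratios over DMF could only lie below 0.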

How the data were processed

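Members and gene lists were chosen with earlier results of these data known. The authors deposited a linear intensity for each probe set of each array; how they summarised probes, corrected background or made detection calls is not given in the sources used here. These values had a mean of 100.1 on each array once the lowest and highest 2% of probe sets were left out, the mark of a global scaling. Of 9335 probe sets 60 were controls, 6504 were annotated to 1 gene, 328 to several (not used) and 2443 non-control ones had no entry. All 6504 identifiers matched the R64 gene table, which gave symbols and gene order.

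Each array was scaled to its median (factors 1.04, 0.986 and 0.974 for DMF, 7.5 µM and 15 µM). Of several probe sets of a gene the brightest was used. Alternatives were the deposited values, quantile normalisation, lowess centring (span 0.3), 8 spikes as scale (those above the floor on all arrays), floors at the 20th and 60th percentile, a pseudocount (5th percentile) with no floor, averaging a gene's probe sets, and 1.5-fold and 3-fold rules. Besides the 9 members, genes were named as the 5 nearest in pattern, and from each list as up to 4 called ones by size at 15 µM, or else the 2 largest. HAP1, ROX1 and AFT1 were named in any case, and CYC1, CTA1, CTT1 and the neighbours RPC11 and BAP3 after their values were seen. The call rule was run on simulated data with changes planted only in genes well above the floor. Changes in genes as dim as HEM3 and HMX1 were not simulated. Promoter motifs were not searched, since no sequence was used here. The tools were statsmodels 0.14.6 (lowess), matplotlib 3.10.9, pandas 2.3.3, numpy 2.4.6 and Python 3.11.15.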

Additional observations from a re-analysis of the deposited data

How the results depend on the processing

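With 1 array per condition no array could be left out, and no paired analysis was possible because no condition has a second sample. Apart from spike scaling, 10 member ratios, all of HEM3 or HMX1, and 4 list medians, all of the siroheme branch, moved by more than the SD between probe sets of a gene. HEM13, the member called at 15 µM, kept its direction under all 8 alternatives of scaling, floor and probe sets. The count of members at least 2-fold higher at 15 µM was 1, and it was 5 with spike scaling (HEM2, HEM12, HEM13, HEM14 and HEM15), 2 with the 1.5-fold rule and 0 with the 3-fold rule. At 7.5 µM it was 0, and it was 1 with the deposited values, 2 with spike scaling (HEM2 and HEM13) and 1 with the 1.5-fold rule. Under spike scaling 1288 of the 4829 genes then compared were called higher at 15 µM, and 798 at 7.5 µM. The 1.5-fold rule called 8.26% of all genes higher at 15 µM and 8.62% at 7.5 µM. The count lower at 7.5 µM was 0, and it was 1, HMX1, with the pseudocount and with the 20th percentile floor. The other counts, that of members lower at 15 µM and those between the doses, were 0 under every alternative. The log2 ratio of HEM13 at 15 µM ranged from 1.26 to 1.38 over the 7 alternatives other than spike scaling, and was 2.12 with it, or 1.38 relative to the median of all genes. The range at 7.5 µM was 0.94 to 1.05, with 1.65 and 1.06 under spike scaling. At 7.5 µM HMX1 had a log2 ratio between -1.26 (20th percentile floor) and 0 (60th percentile floor), since its tomatidine signals lie under the main floor. Over all genes compared, calls higher and lower at 15 µM were 129 and 54, but 202 and 143 with the 20th percentile floor, 85 and 27 with the 60th, 150 and 88 with the pseudocount and 157 and 45 with the deposited values. At 7.5 µM they were 94 and 29, but 157 and 128, 56 and 10, 116 and 66, and 126 and 19 in that order. Between the doses 34 and 14 genes were called, but 121 and 54, 10 and 7, and 68 and 28 with the first 3 of these, and 68 and 4 with spike scaling. Signal over background limits HEM3 and HMX1 to bounds.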
